A study of Arabidopsis thaliana with 12 samples.

Results

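The 4 ferritin genes of Arabidopsis, *FER1* (AT5G01600), *FER2* (AT3G11050), *FER3* (AT3G56090) and *FER4* (AT2G40300), and *NEET* (AT5G51720), which encodes an iron-sulfur protein, are described here in leaves of plants with altered *pGlcT2* expression. These are 5 of the 32954 genes in the deposited expression table. They were taken by their gene identifiers and were chosen by their FPKM values in the comparisons of both mutants with wild types, which were known when the set was put together. Their differences between genotypes are therefore given as a description, without a p-value, and the counts of these genes called in the fit across all genes support nothing. An FPKM value is the number of fragments of a gene, divided by the length of the gene and a size set for the library. Of the 5 genes, 4 reached the level required for the fit across all genes (at least 1 FPKM in at least 4 libraries), and *FER2* did not.

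Ferritins are hollow protein shells in which iron is stored in a form that does not react with oxygen, and plant ferritins are carried into plastids. In Arabidopsis, *FER1*, *FER3* and *FER4* are the ferritin genes of vegetative tissue, *FER2* is the one of seeds, and ferritin transcripts are known to accumulate when iron is in excess and to be low when it is scarce. NEET proteins bind a 2Fe-2S cluster that they can pass on to other proteins, and the Arabidopsis NEET protein is located in chloroplasts and mitochondria.

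RNA came from leaves of 3 genotypes in the Col-0 ecotype, the *pGlcT2* overexpressor line #5, the knock-out line *glct2* and wild types, in 12 libraries, 4 biological replicates for each genotype. *pGlcT2* (AT1G05030) encodes a sugar transporter of the plastid. In the overexpressor, its cDNA stands under the 35S promoter of cauliflower mosaic virus, which is active in most cell types, and the study's text describes the overexpression lines as made on the basis of the *glct2* line. The *glct2* line is SALK_052078, with a T-DNA in the first intron of *pGlcT2*. Each mutant genotype is thus represented by a single line. All plants, wild types included, were grown for 24 days under a short day, after which the light was left on without a dark phase for 10 to 12 days, at an intensity between 100 and 120 μmol quanta m-2 s-1. The libraries hold RNA of whole leaf tissue, so fewer cells of a type and less RNA per cell cannot be told apart. Nothing in the labels says whether the replicates were grown apart, and the spread between them may in part be technical.

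The targeted gene followed the labels in direction. *pGlcT2* averaged 206 ± 25.1 FPKM in the overexpressor, 3.09 ± 0.554 FPKM in *glct2* and 9.31 ± 0.771 FPKM in wild types (SD, n = 4 each), with no overlap between any of the genotypes. The line labelled a knock-out thus kept 33.2% of the wild-type mean, with 607 reads over 4 libraries against 1879. Where along the gene these reads lie was not tested. The libraries held 17448191 to 22477845 reads in the overexpressor, 18471068 to 22418179 in *glct2* and 19035449 to 24276381 in wild types, counted back from FPKM and gene length. A gene of 1 kilobase with 1 read was listed at 0.0425 to 0.0553 FPKM. Leaf mesophyll markers (*RBCS1A*, *LHCB1.1*, *CA1* and *RCA*) summed to 6956 to 11054 FPKM in the overexpressor, 8494 to 14013 FPKM in *glct2* and 10727 to 17179 FPKM in wild types, so the tissue was leaf by its defining transcripts. All 4 had lower means in the overexpressor than in wild types, and 3 of them were called lower, where 19.9% of all genes tested were. Of 5 markers of seeds (storage proteins, an oleosin and a late embryogenesis gene), all were below 1 FPKM in every library, with sums of 0.192 to 0.532 FPKM in the overexpressor, 0.0738 to 0.997 FPKM in *glct2* and 0.0966 to 0.314 FPKM in wild types. Sums of 5 flower markers were 2.19 to 6.77 FPKM in the overexpressor, 1.65 to 3.35 FPKM in *glct2* and 1.26 to 2.62 FPKM in wild types. Root markers (5 genes) summed to 12.4 to 13.8, 9.81 to 12.9 and 11.3 to 13.2 FPKM in this order. Most of it came from *SCR*, with means of 11.3, 10.4 and 11.6 FPKM. The root markers *IRT1* (means of 0.560, 0.457 and 0.0159 FPKM) and *FRO2* (1.27, 0.570 and 0.653 FPKM) did not reach the level required for the fit. Among 5 senescence markers, *NAP* was called lower in both mutants and *ORE1* in *glct2*, and 0 were called higher. Of all genes tested, 19.9% were called lower in the overexpressor and 2.62% in *glct2*.

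In the TAIR10 build, the 4 ferritin genes have 8 exons and 7 introns each. *FER1* occupies bases 227953 to 230051 of chromosome 5 (minus strand), *FER2* bases 3463477 to 3465506 of chromosome 3 (plus strand), *FER3* bases 20813904 to 20816035 of chromosome 3 (minus strand), and *FER4* bases 16831109 to 16833294 of chromosome 2 (minus strand). *NEET* is a short gene with 2 exons at bases 21009347 to 21010345 of chromosome 5 (plus strand). The exons of *FER3* and *FER4* share a run of 32 identical bases, and no other pair of ferritins shares more than 17, so few reads could match 2 of these paralogs without a mismatch. A long noncoding RNA gene on the opposite strand, AT5G01595, covers 1334 bases of *FER1*. It was listed at 2.26 to 3.34 FPKM in the overexpressor, 2.16 to 3.36 FPKM in *glct2* and 1.83 to 2.66 FPKM in wild types, and since the strand setting of the counting is not stated, reads of the 2 genes may have been mixed. *FER4* overlaps its same-strand neighbour AT2G40290 over 118 bases (33.0 to 38.3 FPKM in the overexpressor, 33.5 to 38.8 FPKM in *glct2* and 31.2 to 38.8 FPKM in wild types).

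The upstream sequence of *FER3* is shown because it holds a G-box, CACGTG, a palindrome bound by transcription factors of the bHLH and bZIP families, which *FER1* and *FER2* carry behind their start. The window is the 250 bases before the annotated start, in the direction of transcription and read from the RefSeq TAIR10.1 assembly, at chr3:20816036-20816285 (minus strand), with the G-box in capitals.
FER3: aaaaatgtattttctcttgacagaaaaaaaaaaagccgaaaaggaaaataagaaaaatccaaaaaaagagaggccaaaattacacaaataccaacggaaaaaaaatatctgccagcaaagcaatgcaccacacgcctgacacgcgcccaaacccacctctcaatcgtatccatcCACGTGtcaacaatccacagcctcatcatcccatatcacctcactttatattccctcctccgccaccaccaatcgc

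The G-box begins 76 bases before the start of *FER3*. A G-box is present in 6.48% of the 27419 promoters of this length.

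No G-box was found in the 250 bases before *FER1*, *FER2* or *NEET*. All 250 bases before *FER2* lie within a protein-coding gene of the same strand, AT3G11040, which overlaps *FER2* by 8 bases. In *FER1*, known elements lie behind the annotated start, in the 5′ UTR of 457 bases in the first exon. The sites of 30 bases below show them in the order of transcription, all on the minus strand of chromosome 5, with the matched letters in capitals. They are the binding site of PHR1 (P1BS, GNATATNC) at chr5:229798-229827, the core of the iron-dependent regulatory sequence (IDRS, CACGAG) at chr5:229761-229790, through which *FER1* is repressed when iron is low, and a G-box at chr5:229714-229743.
FER1 P1BS: tggatcGAATATCCtcacgttcacactatc
FER1 IDRS: atgtagCACGAGgccgccacacgcccctac
FER1 G-box: accctcCACGTGgatctcaatccaacggtg

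In the 5′ UTR of *FER2* a G-box begins at base 32 of the transcript. With both strands searched in the first 500 bases from the start, the letters CACGAG occur in 13.3% of 27419 genes, GNATATNC in 7.57% and CACGTG in 6.78%. In the 250 bases upstream the shares are 4.16% for CACGAG and 5.45% for GNATATNC, and *FER1*, *FER2*, *FER3* and *NEET* had neither there. The 3 motifs do not overlap each other in *FER1*. None was found in the first 500 bases of *FER3* or *NEET*. A match of so few letters is a description of the sequence only.

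*FER1*, the ferritin gene with the highest leaf level in wild types, was at about 15.3% of the wild-type level in the overexpressor and 18.3% in *glct2*. Its level was 16.2, 16.6, 25.7 and 30.9 FPKM in the overexpressor libraries, 22.6, 24.0, 22.5 and 38.1 FPKM in *glct2*, and 159.6, 142, 112 and 173 FPKM in wild types. Every mutant library was thus below every wild-type library, while the 2 mutants overlapped. Set against wild types, the log2 fold change, a difference of mean log2(FPKM + 1), was -2.69 (standard error 0.22) for the overexpressor and -2.42 (standard error 0.22) for *glct2*. Between the overexpressor and *glct2* it was -0.27 (standard error 0.22), little more than its standard error. Counted from the lowest log2 fold change of the 18354 genes tested, *FER1* ranked 29 in the overexpressor and 3 in *glct2*. *FER4* ranked 38 in the overexpressor and 11 in *glct2*, and *FER3* 1048 and 346. As the genes were chosen on these contrasts, their ranks are a description and support nothing.

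*FER4*, whose protein is found in plastids and also in mitochondria, separated all 3 genotypes. It was at 5.27, 7.24, 4.67 and 7.48 FPKM in the overexpressor, 11.1, 12.0, 8.50 and 17.8 FPKM in *glct2*, and 42.6, 29.8, 43.3 and 49.3 FPKM in wild types. No library of one genotype reached into the range of another. The overexpressor held 14.9% and *glct2* 29.9% of the wild-type mean, with log2 fold changes of -2.56 (standard error 0.21) for the overexpressor and -1.68 (standard error 0.21) for *glct2*. The overexpressor had 49.9% of the *glct2* mean, a log2 fold change of -0.87 (standard error 0.21).

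*FER3* encodes another plastid ferritin of leaves, and of the 4 genes tested it had the smallest log2 fold changes against wild types. The libraries of the overexpressor had 20.5, 26.9, 16.1 and 21.0 FPKM, those of *glct2* 26.6, 27.7, 20.1 and 25.6 FPKM, and those of wild types 36.2, 29.4, 39.1 and 40.7 FPKM. The mutants lay below wild types without overlap, though the distance between the highest *glct2* library (27.7 FPKM) and the lowest wild-type library (29.4 FPKM) was small. Log2 fold changes were -0.77 (standard error 0.15) in the overexpressor and -0.52 (standard error 0.15) in *glct2*, against wild types in both cases. The overexpressor and *glct2* overlapped, and their log2 fold change was -0.25 (standard error 0.15).

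*FER2*, the seed ferritin gene, was close to the limit of detection in all leaves. It had 0.334, 0.174, 0.721 and 0.307 FPKM in the overexpressor (4 to 15 reads), 0.994, 0.561, 0.545 and 0.541 FPKM in *glct2* (12 to 22 reads), and 0.914, 0.688, 0.651 and 0.563 FPKM in wild types (13 to 19 reads). The genotypes overlapped in every pair. With the 4 to 15 reads of an overexpressor library, the exact Poisson interval (95%) reached from 0.0473 to 0.444 FPKM in the library with the fewest reads and from 0.403 to 1.19 FPKM in the one with the most. These intervals cover counting error only. The 4 libraries together held 35 reads of *FER2* in the overexpressor, 61 in *glct2* and 67 in wild types. In a fit without the filter on low values, its log2 fold change was -0.31 (standard error 0.12) for the overexpressor and -0.04 (standard error 0.12) for *glct2*, each against wild types. All its values lie below the pseudocount of 1 FPKM, so these fold changes understate the distances. In mean FPKM, the overexpressor was at 54.5% and *glct2* at 93.8% of wild types.

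Relative to its lowest value, *NEET* had the widest range of the 5 genes, 0.297 to 98.0 FPKM. It was at 0.458, 3.55, 0.297 and 1.69 FPKM in the overexpressor libraries. The *glct2* libraries had 9.56, 8.66, 2.92 and 21.6 FPKM, and wild types had 73.6, 43.5, 78.9 and 98.0 FPKM. All mutant libraries were below all wild-type libraries, but overexpressor replicate 2 (3.55 FPKM) was above *glct2* replicate 3 (2.92 FPKM).

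In mean FPKM, the *NEET* level of the overexpressor was 2.04% of that in wild types, and the level of *glct2* was 14.6%. The log2 fold change against wild types was -5.03 (standard error 0.50) in the overexpressor and -2.88 (standard error 0.50) in *glct2*, and -2.15 (standard error 0.50) between the overexpressor and *glct2*. It was the lowest of all 18354 genes tested in *glct2* and the second lowest in the overexpressor, in the contrasts on which the gene was chosen. Because the pseudocount of 1 FPKM is close to the levels in the overexpressor, the fold change understates the distance there, and it was -6.01 with a pseudocount of 0.1 and -3.57 with one of 5. The overexpressor values rest on 8, 53, 4 and 25 reads. The lowest, 0.297 FPKM from 4 reads, has an exact Poisson interval (95%) from 0.0809 to 0.760 FPKM, and the highest, 3.55 FPKM from 53 reads, one from 2.66 to 4.65 FPKM, so the spread among the overexpressor libraries was larger than counting error.

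**Figure D1:**
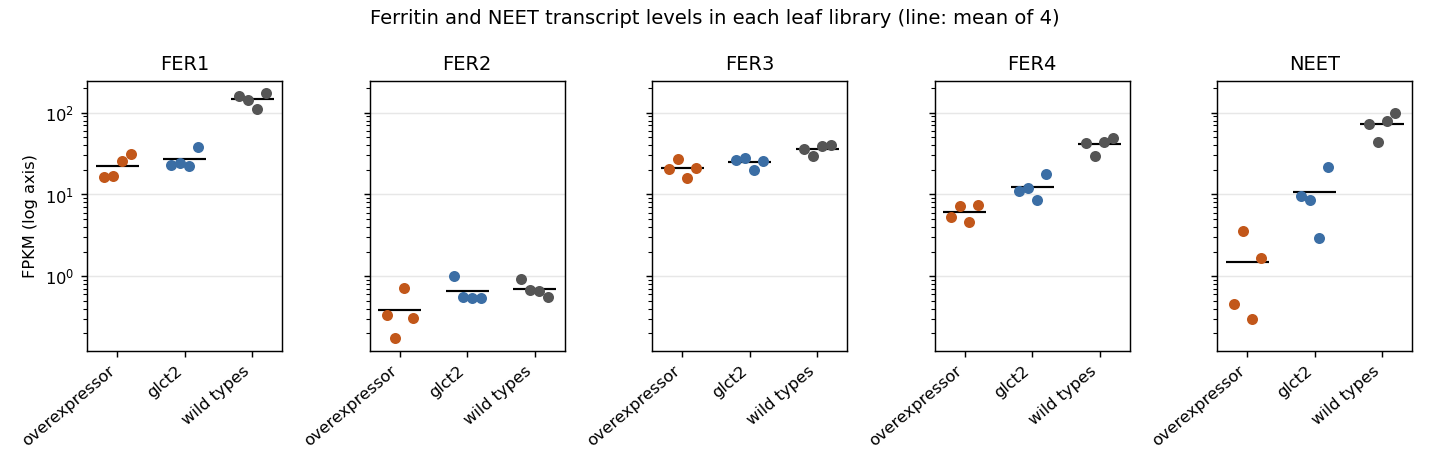
FPKM of each gene in every library on a log axis, with 1 point for a library, the overexpressor, *glct2* and wild types from left to right, and a line at the mean of 4. For *FER1*, *FER3*, *FER4* and *NEET* all mutant points lie below all wild-type points, and *NEET* in the overexpressor spreads from 0.297 to 3.55 FPKM.

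In the fit across all genes, 4 of the 4 genes tested were called lower in the overexpressor at an adjusted p under 0.05, where 19.9% of all genes tested were. In *glct2* against wild types 3 of 4 were called lower, all but *FER3*, where 2.62% of all genes were. Between the overexpressor and *glct2* the count was 2 of 4 (*FER4* and *NEET*), where 17.7% of all genes were called lower. Libraries did not overlap with wild types for 4 of 4 genes in the overexpressor (18.5% of all genes lay lower without overlap) and for 4 of 4 in *glct2* (9.43%). Only *FER4* lay lower in the overexpressor than in *glct2* without overlap (16.9% of all genes). As the genes were selected on these contrasts, nothing is read from these counts. Both comparisons with wild types use the same 4 wild-type libraries.

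The median log2 fold change of the 4 genes was -2.62 in the overexpressor and -2.05 in *glct2* against wild types, beside 0.00 over all genes tested in each. *FER3* in *glct2* was also called in a fit of *glct2* and wild types alone, without overexpressor replicate 2 or without wild-type replicate 2. It was called between the overexpressor and *glct2* when these 2 genotypes were fitted alone with the replicate number as a block, an alternative added after seeing the data, in which 3 of 4 genes were called.

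**Figure D2:**
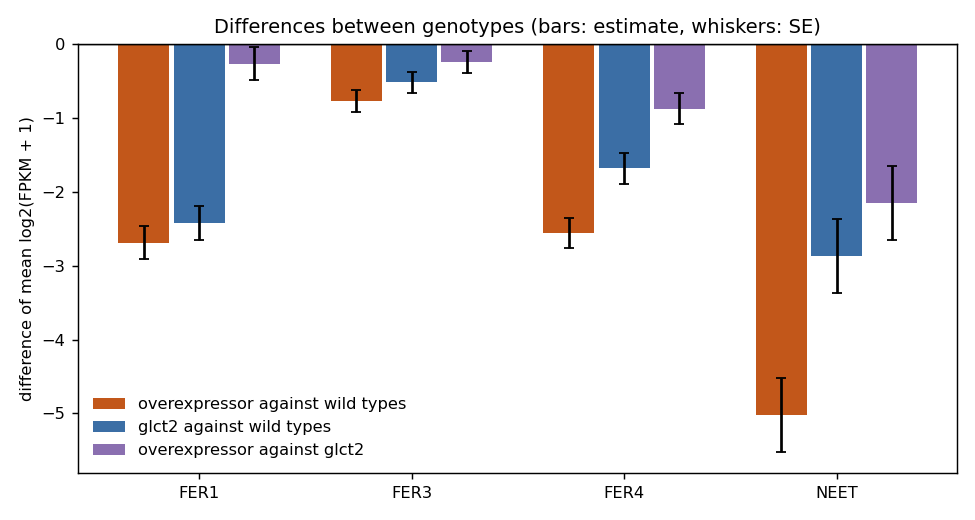
Differences of mean log2(FPKM + 1) for the 4 genes tested, with whiskers of 1 standard error, with each mutant set against wild types in the first 2 bars of a gene and the overexpressor against *glct2* in the last. All bars point down, *NEET* in the overexpressor reaches -5.03, and *FER1* and *FER3* are close to 0 between the overexpressor and *glct2*.

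Since FPKM values are per length, the ferritin transcripts can be added up. Together they came to 50.0 ± 7.38 FPKM in the overexpressor, 64.8 ± 12.7 FPKM in *glct2* and 225 ± 32.2 FPKM in wild types (SD, n = 4 each). The highest mutant sum was 82.0 FPKM, in *glct2*, and the lowest wild-type sum was 195 FPKM. The make-up differed as well as the amount. *FER1* made up 44.3% ± 10.5 of the ferritin FPKM in the overexpressor, 41.1% ± 4.66 in *glct2* and 65.0% ± 5.49 in wild types (SD, n = 4 each).

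The share of *FER3* was 42.6% ± 9.39 in the overexpressor, 39.2% ± 5.64 in *glct2* and 16.3% ± 2.54 in wild types (SD, n = 4 each). *FER4* had 12.3% ± 1.78 in the overexpressor, 18.7% ± 2.19 in *glct2* and 18.4% ± 3.08 in wild types. The mean shares of *FER1* and *FER3* were thus close to each other in both mutants, while in wild types *FER1* held most of the pool. Single libraries varied, with *FER1* at 32.6% to 54.4% and *FER3* at 34.1% to 52.8% in the overexpressor. *FER2* contributed 0.793% in the overexpressor, 1.05% in *glct2* and 0.318% in wild types.

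**Figure D3:**
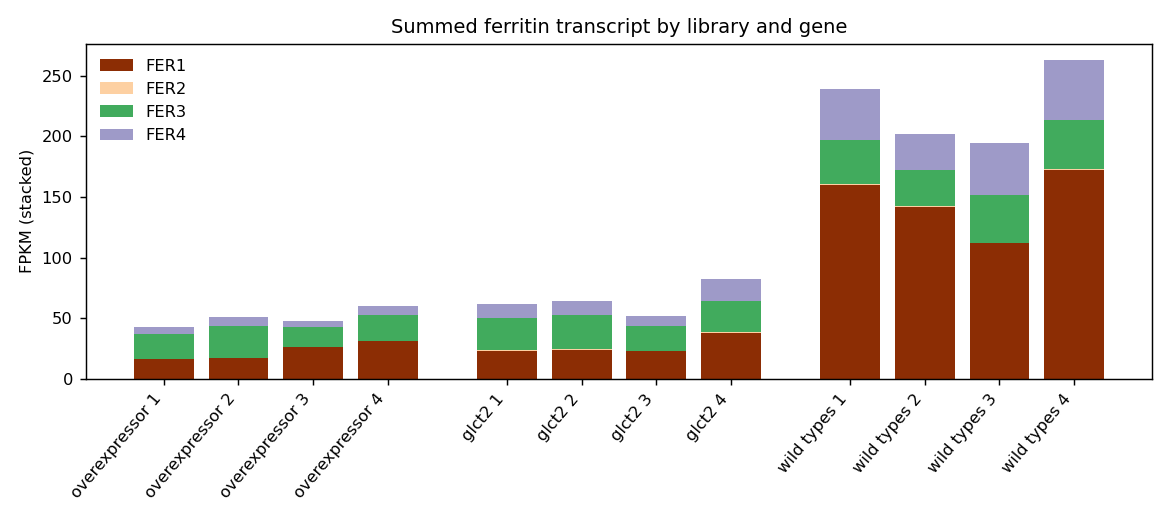
Summed FPKM of the 4 ferritin genes in each library, stacked by gene, for overexpressor, *glct2* and wild-type libraries from left to right. The mutant bars end at 42.3 to 82.0 FPKM and the wild-type bars at 195 to 263 FPKM, and the *FER1* part shrinks more than the *FER3* part.

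Within a genotype, *FER4* and *NEET* varied together from library to library. Of the *glct2* libraries, replicate 4 was highest for both and replicate 3 lowest for both. Among wild types replicate 4 was highest and replicate 2 lowest for both, and also for *FER3*. In the overexpressor, replicate 3 had the lowest level of *FER3*, *FER4* and *NEET*. *FER1* was highest in replicate 4 and lowest in replicate 3 of *glct2* as well, but its order differed in the other genotypes, where overexpressor replicate 3 had its second highest level and wild-type replicate 3 its lowest.

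Over the 12 libraries, Pearson's r of log2(FPKM + 1) was 0.99 between *FER4* and *NEET*, 0.93 between *FER3* and *NEET*, 0.93 between *FER1* and *FER4*, 0.92 between *FER3* and *FER4*, 0.88 between *FER1* and *NEET* and 0.77 between *FER1* and *FER3*. These values hold the differences between genotypes. When each library was taken as its deviation from the mean of its genotype, r was 0.93 for *FER4* with *NEET*, 0.81 for *FER3* with *NEET* and 0.74 for *FER3* with *FER4*. The values of *FER1* were 0.45 with *FER4*, 0.30 with *NEET* and -0.18 with *FER3*, pooled over genotypes of which *glct2* had *FER1* in the order of *FER4*. The points of such a correlation share the library, its depth and its leaf material, so the values are given as a description.

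**Figure D4:**
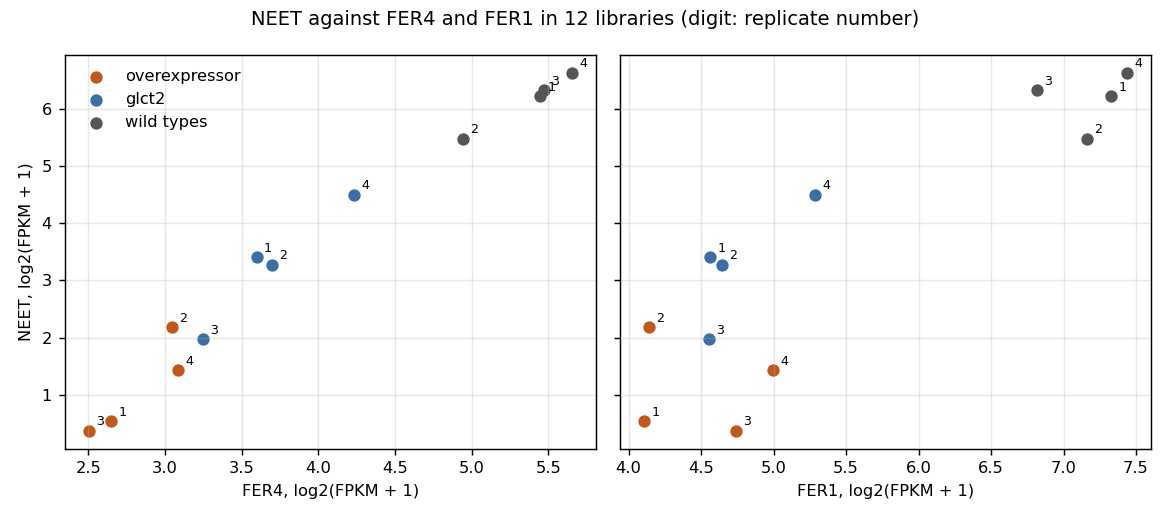
*NEET* against *FER4* (left) and against *FER1* (right), both axes as log2(FPKM + 1), with 1 point for each of 12 libraries coloured by genotype and labelled with its replicate number. *NEET* and *FER4* lie along 1 line across and within genotypes (r = 0.99 over the 12 libraries), and *NEET* and *FER1* do not follow each other within the overexpressor or wild types, while in *glct2* both are highest in replicate 4 and lowest in replicate 3.

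The summed mesophyll markers were lower on average in both mutants, with ranges that overlapped wild types. Of the 4 markers, 3 were called lower in the overexpressor (2 with voom), and 0 in *glct2* by limma (1 was lower at an unadjusted p under 0.05, and 0 with voom). *RBCS1A*, the marker with the highest FPKM, passed in neither (adjusted p = 0.133 in the overexpressor and 0.750 in *glct2*, from limma). The mean of the sum in the overexpressor was 58.4% and in *glct2* 81.2% of that in wild types, while *FER3* was at 58.1% in the overexpressor and 68.8% in *glct2*, *FER4* at 14.9% in the overexpressor and 29.9% in *glct2*, and *NEET* at 2.04% in the overexpressor and 14.6% in *glct2*. As deviations from the genotype means over 12 libraries, the log2 of the marker sum had an r of 0.89 with *FER3*, 0.73 with *NEET*, 0.67 with *FER4* and -0.24 with *FER1*. The part of the leaf material in the levels of these genes was not tested. *ACT2*, one of 4 reference genes, was also lower in the overexpressor (139 ± 6.66 FPKM, against 238 ± 19.6 FPKM in wild types, SD, n = 4 each), while *PP2AA3*, *SAND* and *UBC21* did not pass.

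The genes with the most similar pattern to each member were taken as the 3 with the highest r over the 12 libraries. For *NEET* these were *FER4* (0.99), *ENH1*, which encodes a rubredoxin family protein (0.99), and *PSAF*, a subunit of photosystem I (0.99). *FER4* was most like *APXS*, an ascorbate peroxidase of chloroplasts and mitochondria (0.99), followed by *ENH1* (0.99) and *NEET* (0.99). *APXS* averaged 11.6 FPKM in the overexpressor, 16.9 FPKM in *glct2* and 47.4 FPKM in wild types, and *ENH1* averaged 22.1 FPKM in the overexpressor, 48.0 FPKM in *glct2* and 133 FPKM in wild types.

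*FER1* was most like *SUFB*, which encodes the scaffold subunit of plastid iron-sulfur cluster assembly and is named ABCI8 in the table (0.99), *NADK2*, the NAD kinase of chloroplasts (0.98), and AT5G11700 (0.98). For *FER3* the closest genes were AT4G39970, a hydrolase-like gene (0.97), AT2G20630, a probable protein phosphatase 2C gene (0.97), and *CURT1B*, which encodes a protein that bends thylakoid membranes (0.96). Over the deviations from the genotype means *APXS* again led for *FER4* (0.97), and the leading genes were *IRX12*, a laccase gene, for *FER1* (0.95), *BOU*, a mitochondrial carrier gene, for *FER3* (0.97), and *FLA1*, an arabinogalactan protein gene, for *NEET* (0.96). All these genes were picked as the highest r among all genes tested over 12 libraries. High values arise from such a choice alone, so they are a description and support nothing.

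Around the members, 125 genes of iron handling, oxidative stress and other regulation linked to *FER1* were examined in 8 lists, and 112 were tested. In the overexpressor 28 were higher and 29 lower than in wild types, where 18.7% of all genes tested were called higher and 19.9% lower. In *glct2* 14 were higher and 15 lower, where 1.95% of all genes were called higher and 2.62% lower. The lists were written with earlier results of these data known, and most genes named from them were picked by their p in these contrasts. The p-values printed for list genes are thus a description and no independent support. The medians over all 112 genes were 0.02 in the overexpressor and -0.02 in *glct2*, near the 0.00 over all genes tested. The balance in the overexpressor depended on the scaling, with 42 higher and 24 lower after rescaling to the recovered reads and 43 higher and 24 lower with voom. Over all 18354 genes tested, 5788 were then higher and 2436 lower after rescaling, and 5776 higher and 2416 lower with voom. In *glct2* these settings gave 19 higher and 15 lower, and 18 higher and 14 lower. There, all genes gave 1279 higher and 242 lower after rescaling, and 1227 higher and 249 lower with voom. The counts of single lists below stand against these shares and counts of all genes, and nothing is read from a count near them.

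The regulators of the iron deficiency response had the largest median log2 fold changes of the lists. Of 16 tested, 10 were higher and 4 lower in the overexpressor (10 higher and 2 lower with voom), and 9 were higher in *glct2* by limma (also 9 with voom and 9 at an unadjusted p under 0.05), with median log2 fold changes of 1.62 in the overexpressor and 1.50 in *glct2*, beside 0.00 over all genes tested in each. The 4 lower in the overexpressor by limma were *FIT* (log2 fold change -0.83, adjusted p = 0.00282) and *BTSL2* (-0.65, adjusted p = 0.00267), with *bHLH104* (-0.21, adjusted p = 0.0251) and *bHLH115* (-0.19, adjusted p = 0.0215). None of these 4 passed in *glct2* by limma. *bHLH38*, *bHLH39* and *bHLH100* encode transcription factors of subgroup Ib that switch on iron uptake, and *IMA1* encodes a small peptide that is made when iron is scarce. *bHLH38* was at 84.5 ± 23.7 FPKM in the overexpressor, 48.8 ± 9.75 FPKM in *glct2* and 0.775 ± 0.206 FPKM in wild types (SD, n = 4 each), and it rose by 5.54 (overexpressor, adjusted p = 2.13e-08 from limma) and 4.80 (*glct2*, adjusted p = 8.97e-08) on the log2 scale. *IMA1* was at 91.0 ± 28.0 FPKM in the overexpressor, 48.4 ± 8.78 FPKM in *glct2* and 2.86 ± 1.52 FPKM in wild types (SD, n = 4 each), with log2 fold changes of 4.59 (overexpressor, adjusted p = 1.09e-06 from limma) and 3.74 (*glct2*, adjusted p = 2.19e-05). *bHLH100* rose by 5.09 in the overexpressor and 4.72 in *glct2*, and *bHLH39* by 4.79 in the overexpressor and 4.23 in *glct2*, on the log2 scale (adjusted p at most 1.79e-05 from limma in each). Since these genes were low in wild types, the pseudocount sets the size of such values, and *bHLH39* was at 6.36 in the overexpressor and 5.78 in *glct2* with a pseudocount of 0.1, and at 2.99 in the overexpressor and 2.48 in *glct2* with one of 5.

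*ILR3* encodes a bHLH factor that in Arabidopsis represses ferritin genes together with PYE. Its level was 76.7 FPKM in the overexpressor, 69.6 FPKM in *glct2* and 75.5 FPKM in wild types, and it passed in neither mutant. *PYE* was at 24.6 FPKM in the overexpressor, 25.0 FPKM in *glct2* and 9.88 FPKM in wild types, with log2 fold changes of 1.25 for the overexpressor (adjusted p = 1.82e-05 from limma) and 1.28 for *glct2* (adjusted p = 1.63e-04 from limma). Both genes were named with their values already seen, because of their known role at ferritin genes.

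*PHR1*, the phosphate starvation regulator whose site lies in *FER1*, fell by 0.26 on the log2 scale in the overexpressor (27.6 ± 1.47 FPKM, against 33.2 ± 0.794 FPKM in wild types, SD, n = 4 each, adjusted p = 0.00290 from limma). It was the only one of the 3 other regulators linked to *FER1* to pass there by limma (with voom 1 was higher and 0 were lower), and 0 of 3 passed in *glct2* by limma (1 at an unadjusted p under 0.05, and 0 by voom). The call of *PHR1* was lost after rescaling to the recovered reads and with voom.

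Plastid iron-sulfur cluster assembly, the pathway that supplies chloroplast ferredoxins, had medians of -0.08 in the overexpressor and -0.03 in *glct2*. Of 16 genes tested, 1 was higher and 5 were lower in the overexpressor (5 higher and 3 lower with voom), and 1 was lower in *glct2*. Of all genes tested, 19.9% were called lower in the overexpressor and 2.62% in *glct2*. *SUFB* was the one list gene lower in both. It was at 38.8 ± 6.93 FPKM in the overexpressor, 46.5 ± 5.44 FPKM in *glct2* and 103 ± 8.95 FPKM in wild types (SD, n = 4 each), with log2 fold changes of -1.40 for the overexpressor (adjusted p = 6.58e-06 from limma) and -1.14 for *glct2* (adjusted p = 3.32e-04 from limma). *SUFE2*, an activator of cysteine desulfurase, fell by 2.17 on the log2 scale in the overexpressor (adjusted p = 9.42e-05 from limma), *NFS2*, the plastid cysteine desulfurase, by 0.36 (adjusted p = 0.00360 from limma) and *BOLA1* by 0.30 (adjusted p = 0.00750 from limma). The call of *BOLA1* was lost after rescaling to the recovered reads and with voom.

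In mitochondrial iron-sulfur cluster assembly, 6 of 18 genes were higher and 1 lower in the overexpressor (10 higher and 1 lower with voom), and 2 were higher in *glct2*. Shares over all genes tested were 18.7% higher and 19.9% lower in the overexpressor, and 1.95% higher in *glct2*. In the overexpressor, *IBA57.1* rose by 0.75 on the log2 scale, the chaperone genes *HSCA2* by 0.60 and *HSCA1* by 0.46, and *ISD11*, a partner of the cysteine desulfurase, by 0.47 (adjusted p at most 3.84e-04 from limma). In *glct2*, *ISD11* rose by 0.28 (adjusted p = 0.0252 from limma) and *FH*, the frataxin gene, by 0.24 (adjusted p = 0.0401 from limma). The *ISD11* call in *glct2* was lost without *glct2* replicate 1, 2 or 3 or wild-type replicate 1 or 4 (adjusted p = 0.0529 to 0.0895 from limma), and that of *FH* without overexpressor replicate 1 or any single library of *glct2* or wild types (adjusted p = 0.0536 to 0.104 from limma). Of 9 genes of the cytosolic pathway, 2 were higher in the overexpressor (3 with voom), *GRXS17* by 0.23 (adjusted p = 0.00611 from limma) and *CIA1* by 0.16 (adjusted p = 0.0490 from limma), and 0 passed in *glct2* by limma (without adjustment 3 higher and 1 lower had a p under 0.05, and with voom 1 was higher). The call of *CIA1* was lost without overexpressor replicate 1, 3 or 4, *glct2* replicate 1 or 4, or any single wild-type library (adjusted p = 0.0632 to 0.124 from limma).

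Among 20 genes of organellar and vacuolar iron transport, 3 were higher and 5 lower in the overexpressor (6 higher and 5 lower with voom), and 2 were higher and 3 lower in *glct2* (3 higher and 3 lower with voom). In the overexpressor the limma counts were near the 18.7% of all genes tested that were called higher and the 19.9% called lower. *FRO3*, an iron reductase of mitochondria, was at 74.7 ± 15.8 FPKM in the overexpressor, 58.3 ± 2.62 FPKM in *glct2* and 19.0 ± 2.52 FPKM in wild types (SD, n = 4 each), with log2 fold changes of 1.90 for the overexpressor (adjusted p = 2.47e-06 from limma) and 1.57 for *glct2* (adjusted p = 7.42e-05 from limma). *NRAMP4*, which releases iron from the vacuole, rose by 1.36 in the overexpressor (limma, adjusted p = 2.81e-05) and by 0.91 in *glct2* (adjusted p = 0.00626 from limma) on the log2 scale, and its relative *NRAMP3* by 0.74 in the overexpressor (adjusted p = 1.19e-04 from limma). *VTL1*, which moves iron into the vacuole, was at 0.225 FPKM in the overexpressor, 0.817 FPKM in *glct2* and 2.97 FPKM in wild types, and fell by 1.68 in the overexpressor (limma, adjusted p = 6.58e-06) and by 1.13 in *glct2* (adjusted p = 0.00134 from limma) on the log2 scale. At these low levels its log2 fold change was -3.22 in the overexpressor and -1.78 in *glct2* with a pseudocount of 0.1, and -0.60 in the overexpressor and -0.45 in *glct2* with one of 5.

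Of 23 chloroplast proteins that carry iron or an iron-sulfur cluster, 6 were higher and 9 lower in the overexpressor (8 higher and 9 lower with voom), and 1 was higher and 8 were lower in *glct2* (3 higher and 7 lower with voom). Among all genes tested, 18.7% were higher and 19.9% lower in the overexpressor, and 1.95% higher and 2.62% lower in *glct2*. *FSD1*, an iron superoxide dismutase, was at 37.0 ± 6.63 FPKM in the overexpressor, 165 ± 35.7 FPKM in *glct2* and 382 ± 104 FPKM in wild types (SD, n = 4 each), with log2 fold changes of -3.31 for the overexpressor (adjusted p = 1.09e-06 from limma) and -1.19 for *glct2* (adjusted p = 0.00976 from limma). *FD2*, the main leaf ferredoxin, fell by 2.13 in the overexpressor (limma, adjusted p = 3.02e-05) and by 1.13 in *glct2* (adjusted p = 0.0224 from limma) on the log2 scale. Sulfite reductase, *SIR*, fell by 0.88 in the overexpressor (limma, adjusted p = 2.09e-06) and by 0.62 in *glct2* (adjusted p = 2.33e-04 from limma). The glutamate synthase gene *GLT1* fell by 0.81 in the overexpressor (limma, adjusted p = 5.93e-05) and by 0.67 in *glct2* (adjusted p = 0.00298 from limma). *CAO*, chlorophyllide a oxygenase, fell by 1.16 in the overexpressor (limma, adjusted p = 2.42e-05) and by 0.55 in *glct2* (adjusted p = 0.0312 from limma). In *glct2* the call of *FD2* was lost without *glct2* replicate 1 or wild-type replicate 1 or 4 (adjusted p = 0.0546, 0.0609 and 0.0783 from limma), and that of *CAO* without *glct2* replicate 1, 2 or 3 or wild-type replicate 1, 3 or 4 (adjusted p = 0.0521 to 0.104 from limma).

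Genes of the oxidative stress response, some of which rise with ferritins under excess iron, included none called higher. Of 7 tested, 4 were lower in the overexpressor and 3 in *glct2*, and 0 were higher in either by limma, at an unadjusted p under 0.05 or with voom. Over all genes tested, 19.9% were called lower in the overexpressor and 2.62% in *glct2*. The copper/zinc superoxide dismutase gene *CSD2* fell by 1.08 in the overexpressor (limma, adjusted p = 5.04e-04) and by 1.55 in *glct2* (adjusted p = 5.69e-04 from limma). *CSD1*, its cytosolic relative, fell by 0.71 in the overexpressor (limma, adjusted p = 0.00764) and by 1.18 in *glct2* (adjusted p = 0.00419 from limma). The cytosolic ascorbate peroxidase gene *APX1* fell by 0.78 in the overexpressor (limma, adjusted p = 5.75e-04) and by 0.76 in *glct2* (adjusted p = 0.00943 from limma). AT3G28580, a gene used as a marker of singlet oxygen, fell by 1.24 in the overexpressor (adjusted p = 0.00317 from limma).

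**Figure D5:**
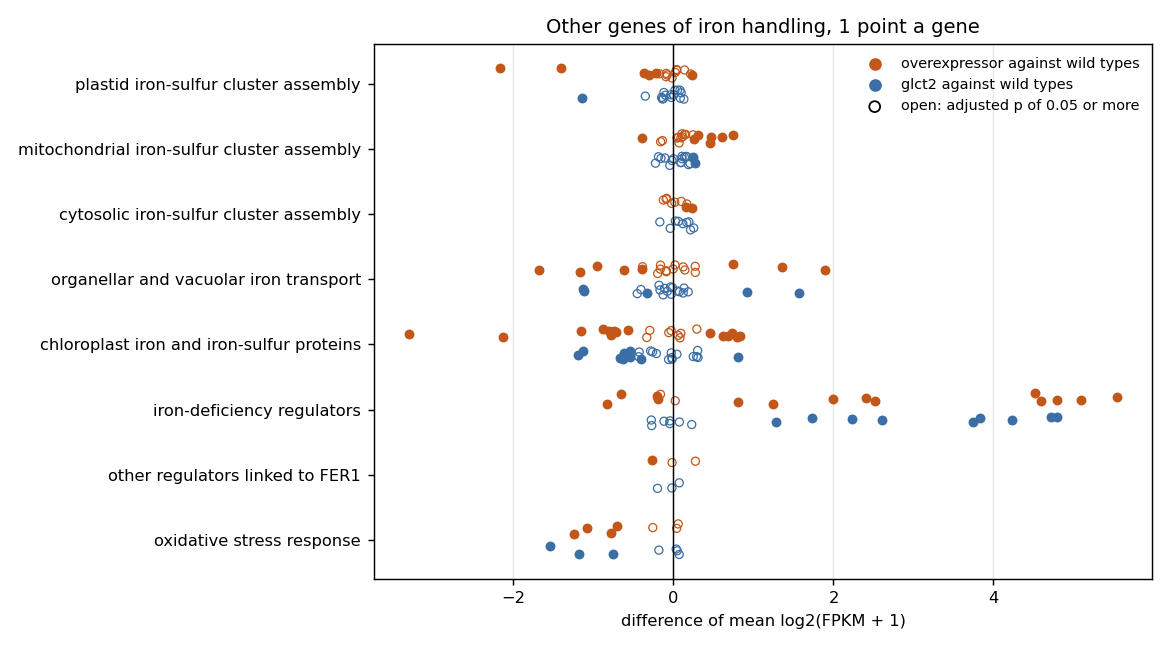
Differences of mean log2(FPKM + 1) for each tested gene of the 8 lists of iron handling, oxidative stress and other regulators linked to *FER1*. The overexpressor against wild types is in the upper and *glct2* against wild types in the lower band of each list, with filled points for an adjusted p under 0.05. The iron deficiency regulators reach 5.54 in the overexpressor and 4.80 in *glct2*, while most genes of iron-sulfur cluster assembly lie near 0.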

How the data were processed

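Leaf RNA of 12 *Arabidopsis* samples, 4 of each genotype as the labels name it, was sequenced from directional libraries. Per the submitters' processing notes the tools were HISAT2 2.0.5 and StringTie 1.3.3, beside fastp, with TAIR10 as the genome build. FPKM values were deposited by the authors as 1 value per gene and library, and the counting program and its strand setting are not given in the sources used here. The 3 columns of means equal the authors' FPKM averages and were not used, and 0 columns belonged to no sample. FPKM times gene length gave whole multiples of 1 read for 100% of values within 0.01 of a read.

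The members and lists were chosen with earlier results of these data known. The 18354 of 32954 genes that reached 1 FPKM in 4 or more libraries were fitted as log2(FPKM + 1), computed from the deposited values, in 1 limma 3.58.1 model (R 4.3.3) over the 3 genotypes, with two-sided p-values adjusted after Benjamini and Hochberg and called under 0.05. The study's methods name no test for the expression table. Named list genes are, per list, those called with the smallest p (up to 4 for the overexpressor, up to 2 for *glct2*). *ILR3*, *PYE* and the iron deficiency regulators called lower were named beside this rule. Alternatives were pseudocounts of 0.1 and 5, filters, 4 rescalings, voom on recovered reads, 2 genotypes alone, a replicate block and leaving out each library. The correlation of deviations was 0.119 to 0.184 for same-numbered pairs of overexpressor and *glct2*, and -0.176 to 0.082 for their other pairs. Between mutants and wild types it was -0.329 to 0.328 for same-numbered pairs and -0.394 to 0.351 for the others. Values of this size thus do not show what the numbers share. Upstream windows came from the RefSeq TAIR10.1 assembly, where 99.953% of 27420 protein-coding genes had the same start and end. The upstream window of *FER4* is not reported here. Python 3.11.15, pandas 2.3.3, numpy 2.4.6, scipy 1.17.1 and matplotlib 3.10.9 were used.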

Additional observations from a re-analysis of the deposited data

Results flagged for a closer look

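In 105 groups of 4 libraries examined for a library far from the other 3, 7 held one, where chance alone gives about 1 in 20 groups. Among the members these were *FER1* in *glct2*, where replicate 4 was high at 38.1 FPKM, and *FER2* in *glct2*, where replicate 1 was high at 0.994 FPKM. Among the list genes they were *NRAMP3* in wild types (replicate 4 low at 3.77 FPKM), *bHLH38* in the overexpressor (replicate 4 low at 49.2 FPKM), *bHLH100* in *glct2* (replicate 3 high at 76.7 FPKM), *CSD2* in the overexpressor (replicate 4 high at 129.7 FPKM) and AT3G28580 in wild types (replicate 1 high at 7.53 FPKM).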

How the results depend on the processing

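None of the 4 members changed direction in any of the 3 comparisons under the alternatives run. With pseudocounts of 0.1 and 5, *NEET* was -6.01 and -3.57 in the overexpressor against wild types and -2.97 and -1.17 against *glct2*, and *FER4* was -2.04 in the overexpressor against wild types with a pseudocount of 5. With voom on the recovered reads, *NEET* was -6.01 against wild types and -3.12 against *glct2*. The cause of the shift with voom was not tested. Among named list genes, the pseudocount of 5 also moved log2 fold changes in the overexpressor to 3.91 for *bHLH38*, 3.61 for *bHLH100*, 3.57 for *IMA1*, -1.38 for *SUFE2*, -0.59 for AT3G28580 and 0.47 for *NRAMP3*, and in *glct2* to 3.20 for *bHLH38*, 3.26 for *bHLH100* and 2.77 for *IMA1*, all still called. With a pseudocount of 0.1, *bHLH38* was at 6.57 in the overexpressor and 5.81 in *glct2*, and *bHLH100* at 5.99 in the overexpressor and 5.62 in *glct2*.

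The count of genes called in *glct2* against wild types was 838, with 357 higher and 481 lower. It was 1521 after rescaling to the recovered reads (1279 higher, 242 lower) and 1476 with voom (1227 higher, 249 lower), where the median of all genes stood at 0.10 and 0.11. With a replicate block it was 493. Leaving out 1 library gave 203 to 1130, the lowest without wild-type replicate 4, and any single library but overexpressor replicate 2 or 4 or wild-type replicate 2 moved it by over 1.5 times. In the overexpressor, 3441 were higher and 3646 lower, against 5788 higher and 2436 lower after the same rescaling (median 0.12) and 5776 higher and 2416 lower with voom (median 0.14). The replicate block left the counts of members called lower at 4, 3 and 2 in the 3 comparisons, and in *glct2* it ended the calls of *ISD11* (adjusted p = 0.0526 from limma), *FH* (0.0711) and *CAO* (0.0567) and, in the overexpressor, that of *CIA1* (0.0502). Of 46 calls of list genes named by the smallest p, 39 passed under every alternative that gave a value. *NEET* rests on few reads in the overexpressor, and *FER2* was below the level required for the fit.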
